A study of Caenorhabditis elegans with 2 samples.

Results

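Of 344 small nucleolar RNA (snoRNA) genes in the nuclear annotation of Caenorhabditis elegans, 182 lay wholly inside the span of a protein-coding gene on the same strand. Such a gene is called nested here, and the surrounding gene its host. Members were chosen by biotype and position in the Ensembl annotation, with the 2 genes of that biotype named smy- left out. No binding value is part of that rule, but the rule was chosen with earlier results of these data known. The other snoRNA genes were 33 inside a span on the opposite strand only and 129 outside any protein-coding span. The 182 nested genes shared 155 hosts. Of these hosts 132 held 1 member and 20 held 2, rpl-6 and top-2 held 3 each, and nol-56 held 4. For 149 members an intron of a host transcript held the whole snoRNA gene, and 33 overlapped an exon of every host transcript that spans them.

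Binding was measured by chromatin immunoprecipitation with sequencing (ChIP-seq) of SNPC-4. This protein corresponds to human SNAP190 and is a subunit of SNAPc, the complex that recruits RNA polymerase to small nuclear RNA promoters. The 2 samples were biological replicates 1 and 2 of 1 group: L1 larvae of mixed sex and unknown age, taken as whole animals, of the strain OP179 from the Caenorhabditis Genetics Center (CGC). Its genotype is unc-119(ed3) III; wgIs179, and wgIs179 is an insertion that carries snpc-4 tagged with enhanced green fluorescent protein (eGFP). The description names the tagged protein as the target while the antibody entry reads snpc-4, so the labels leave unsettled whether the tag or the protein was precipitated. Both replicates carry the unc-119 mutation and the insertion, no untagged or wild-type sample was analysed here, and whole larvae do not tell which cells a signal comes from. The labels give fragments of 150 to 350 bp. The deposited peak lists used, on build ce11, were 4: a thresholded list of 2347 peaks (the authors' reproducible set), a pooled relaxed list, and a relaxed list for each replicate, each relaxed list with 30000 peaks. Read numbers are not given, so the depth is unknown, and with 1 group no test between conditions was possible. The interval beside a share is the exact 95% binomial interval over genes, which holds counting error and no spread between animals.

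A snoRNA guides the chemical modification of ribosomal RNA: box C/D snoRNAs direct methylation of the ribose, and box H/ACA snoRNAs direct the change of uridine to pseudouridine. A nested snoRNA can be cut out of the intron of its host's transcript, in which case the host promoter makes it, or it can have a promoter of its own inside the intron. The proximal sequence element (PSE) is the DNA element that SNAPc binds upstream of small nuclear RNA genes, while the A box and the B box are the internal promoter elements of transfer RNA (tRNA) genes, bound by TFIIIC.

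The sequences in front of the members with a summit at their own 5′ end carried 2 kinds of word, and the sequences shown here are the ones the results turn on. Each is the 100 bases before the annotated 5′ end and the first 20 bases of the snoRNA gene, read from the RefSeq genome of assembly WBcel235 (ce11) on the strand of the gene. The first set carries AACNCG, then 5 bases of any kind, then TGTCNG, in capitals and called the PSE word here for its place and content. It holds the strongest nested gene, ZK994.7, then 2 more of the strong ones, 1 of intermediate signal and the weakest one with the word.
ZK994.7 (chrV:8500479-8500598, plus strand): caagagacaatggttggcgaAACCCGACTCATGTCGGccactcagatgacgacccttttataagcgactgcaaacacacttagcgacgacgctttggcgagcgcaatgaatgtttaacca
F01D5.12 (chrII:14018422-14018541, minus strand): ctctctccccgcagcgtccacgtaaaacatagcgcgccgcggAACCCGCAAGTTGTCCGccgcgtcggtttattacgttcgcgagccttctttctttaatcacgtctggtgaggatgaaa
C16D9.11 (chrV:8228950-8229069, minus strand): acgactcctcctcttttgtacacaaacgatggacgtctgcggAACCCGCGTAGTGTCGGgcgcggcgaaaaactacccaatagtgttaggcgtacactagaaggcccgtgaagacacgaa
T19C4.11 (chrV:11175687-11175806, minus strand): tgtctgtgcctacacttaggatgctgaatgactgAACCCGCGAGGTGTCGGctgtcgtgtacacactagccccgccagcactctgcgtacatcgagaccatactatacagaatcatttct
Y73B6A.14 (chrIV:6664536-6664655, minus strand): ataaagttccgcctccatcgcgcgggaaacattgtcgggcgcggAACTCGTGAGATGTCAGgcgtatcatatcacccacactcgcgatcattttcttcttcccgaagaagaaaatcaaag
The word began at the same distance, -58 bp from the 5′ end, in F01D5.12 and C16D9.11, at -56 bp in Y73B6A.14, at -66 bp in T19C4.11 and at -80 bp in ZK994.7. Across the 11 nested genes with the word its start had a median of -58 bp. The sequence of Y37E3.20, the other gene in the top pair, is not shown.

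The second set carries both an A box (TGGNNNA, 2 or 3 bases of any kind, then GG) and a B box (GTTCNANNC, where N is any base in each word), in capitals, just before or across the annotated 5′ end. The strongest of these 4 genes, Y38F2AR.14, had a signal of 73.0, above the upper quartile of bound tRNA genes (67.7). The median was 50.8 for bound tRNA genes and 53.04 for the whole nuclear thresholded list, and the other genes shown lay closer to these medians. Of the 4 genes, 3 also had a summit at the host.
Y38F2AR.14 (chrIV:2408616-2408735, minus strand): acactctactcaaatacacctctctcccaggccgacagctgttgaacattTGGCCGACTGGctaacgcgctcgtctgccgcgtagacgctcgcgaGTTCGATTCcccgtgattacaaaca
Y43F8C.22 (chrV:19643168-19643287, minus strand): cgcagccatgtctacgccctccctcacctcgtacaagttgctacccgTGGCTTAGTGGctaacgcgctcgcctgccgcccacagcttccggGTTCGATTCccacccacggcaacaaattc
C05D2.15 (chrIII:5602160-5602279, minus strand): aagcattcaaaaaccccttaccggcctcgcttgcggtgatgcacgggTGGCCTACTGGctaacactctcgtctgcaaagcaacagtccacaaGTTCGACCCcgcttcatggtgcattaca
M106.6 (chrII:10840217-10840336, plus strand): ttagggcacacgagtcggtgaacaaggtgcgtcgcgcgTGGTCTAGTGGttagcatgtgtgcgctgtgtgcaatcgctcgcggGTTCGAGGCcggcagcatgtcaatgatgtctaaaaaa
In these 4 genes the A box came first and the B box ended between -9 and 3 bp from the 5′ end. They are 4 of 6 own-bound members with both boxes, so this placement describes the genes shown. In C51F7.3, which also has both and is not shown, the boxes lay farther upstream, from -99 to -36 bp. The words were chosen after the sequences of bound members had been read, so their counts among members are a description. On the strand of the gene, the PSE word was in 86 of the 46890 windows of this length at nuclear genes (0.183%), the A box in 1454 (3.1%), the B box in 872 (1.86%) and both boxes in 55 (0.117%). With both strands searched the shares were 0.203% for the PSE word, 6.34% for the A box and 3.44% for the B box. Among genes annotated as small nuclear RNA the PSE word was in 21 of 129 (16.3%), so most of that class lacks it in this exact form. A match describes letters and is not a shown binding site.

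A thresholded summit lay within 250 bp of the snoRNA 5′ end for 27 of 182 nested genes (14.8%, interval 10 to 20.8%). The same held for 3.86% of all 46890 nuclear genes. In the 2347 highest peaks of each replicate, 24 nested genes had such a summit in replicate 1, where the share of all genes was 3.65%, and 27 in replicate 2, where it was 3.8%. The 27 genes rested on 26 summits, because C51F7.3 and C51F7.4, neighbours in frm-7, shared 1. All 27 had a summit in both replicate lists within 100 bp of the thresholded one. The thresholded list was made from these replicates, so this count is partly built in.

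**Figure D1:**
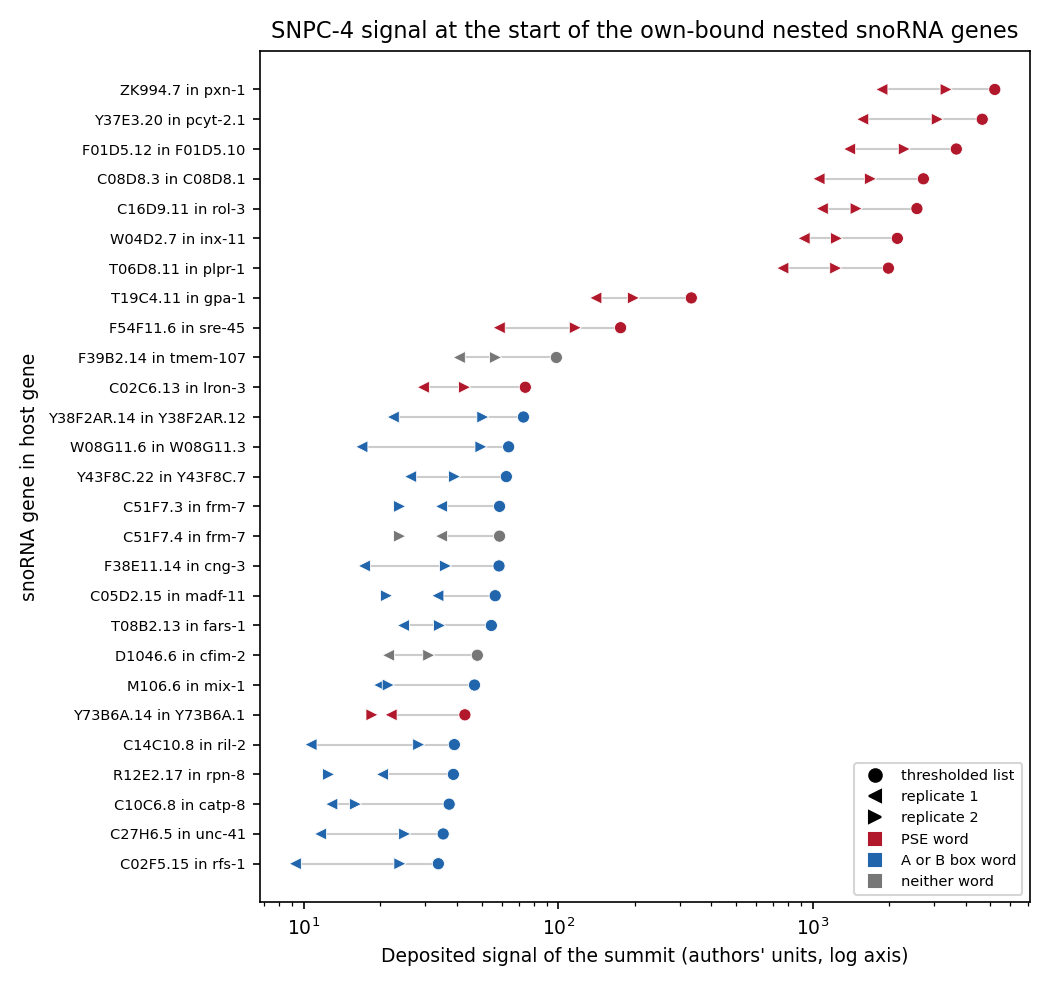
Deposited signal (log axis) of the summit nearest to the 5′ end of the 27 nested snoRNA genes with a thresholded summit within 250 bp, in the thresholded list and in each replicate, coloured by the upstream word. The 9 genes with thresholded signal above 100 all have the PSE word, and the genes with an A or B box lie between 33.8 and 73.0.

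The 11 members with the PSE word all had a thresholded summit, and it was not found in any of the 155 members without one. Their signals, in the authors' units, ran from 43.0 to 5205 with a median of 2155, against a median of 53.04 over the nuclear thresholded list. ZK994.7, in an intron of the peroxidasin gene pxn-1, had a thresholded signal of 5205, with 1872 in replicate 1 and 3353 in replicate 2. Y37E3.20, in pcyt-2.1, a gene for an enzyme of phospholipid synthesis, had a thresholded signal of 4646, with 1574 in replicate 1 and 3095 in replicate 2. F01D5.12, in F01D5.10, had 3674, with 1398 in replicate 1 and 2296 in replicate 2. Both replicates placed these 3 nested genes first and in the same order.

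The next 4 genes with the word were lower than these in each list. C08D8.3, in C08D8.1, had 2727, with 1059 in replicate 1 and 1689 in replicate 2. C16D9.11, in the receptor tyrosine kinase gene rol-3, had 2572, with 1091 in replicate 1 and 1485 in replicate 2. These 2 genes stood in opposite order in the replicates. W04D2.7, in the innexin gene inx-11, had 2155, with 926 in replicate 1 and 1242 in replicate 2. T06D8.11, in plpr-1, completed this strong set of 7: its signal was 1987, with 764 in replicate 1 and 1234 in replicate 2.

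A gap separated these 7 from the remaining 4 with the word. T19C4.11, in the G protein alpha subunit gene gpa-1, had 334, with 141 in replicate 1 and 198 in replicate 2. F54F11.6, in the chemoreceptor-family gene sre-45, had 176, with 58.6 in replicate 1 and 117 in replicate 2. Both were still above every own-bound member without the word. C02C6.13, in lron-3, had 74.2, with 29.5 in replicate 1 and 42.9 in replicate 2. Y73B6A.14, in Y73B6A.1, was the weakest with 43.0, with 22.0 in replicate 1 and 18.5 in replicate 2, and it was the only 1 of the 11 that was lower in replicate 2 than in replicate 1. Genes with the word thus lay both at the top of the 27 members and among the lower ones. Their ranks among the peaks of a list ran from 4 to 1609 (thresholded), from 6 to 1418 (replicate 1) and from 4 to 2411 (replicate 2).

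The summit lay close to the word. Over the 11 genes the summit was at -116 to -43 bp from the 5′ end, and relative to the end of the word it had a median of -10 bp (range -73 to 21). C02C6.13 gave the widest distance, with its summit at -116 bp. None of the 11 had a thresholded summit within 500 bp of the host 5′ end, where 7.94% of all protein-coding genes had one. With 11 genes, a count of none is near that share and is not a trait of this set. Their own 5′ ends lay at least 1877 bp from the host start, with a median of 3443 bp. No host transcript in the annotation starts near any of these 11 summits. Another non-coding RNA gene does start within 250 bp of some of them, including those of Y37E3.20, F01D5.12, W04D2.7, T06D8.11 and T19C4.11. Distance alone does not tie these summits to the snoRNA gene. None of the 11 genes ended in the ACA trinucleotide of box H/ACA snoRNAs (within the last 6 bases), against 58 of all 182 members.

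Of the 16 own-bound members without the PSE word, 13 had an A box, a B box or both. These 13 had lower signals than most genes of the first set, from 33.8 to 73.0 with a median of 54.6. The 101 tRNA genes with a thresholded summit had a median of 50.8, with signals from 32.5 to 2230. The whole nuclear thresholded list had a median of 53.04, so the nearness is not particular to tRNA genes. Y38F2AR.14, in Y38F2AR.12, was the highest of them, with a thresholded signal of 73.0, and 22.5 in replicate 1 and 50.6 in replicate 2. W08G11.6, in W08G11.3, had 63.8, with 16.9 in replicate 1 and 49.7 in replicate 2. Y43F8C.22, in Y43F8C.7, had 62.5, with 26.3 in replicate 1 and 39.1 in replicate 2. These 3 genes were found in both replicates.

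C51F7.3, in the FERM domain gene frm-7, had 58.8, with 34.8 in replicate 1 and 23.8 in replicate 2. F38E11.14 in the channel gene cng-3 (58.5), C05D2.15 in madf-11 (56.5), T08B2.13 in the phenylalanyl-tRNA synthetase gene fars-1 (54.6) and M106.6 in the condensin gene mix-1 (46.9) followed in thresholded signal. C14C10.8 in ril-2, R12E2.17 in the proteasome subunit gene rpn-8, C10C6.8 in catp-8, C27H6.5 in unc-41 and C02F5.15 in rfs-1 lay lower, between 33.8 and 39.1. The signals of these 13 in the replicates overlapped those of the weak genes with the PSE word.

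The boxes were found in bound and unbound members. Of 182 members, 25 had an A box and 12 of these were bound, and 16 had a B box and 7 of these were bound. Both boxes were in 10 members, of which 6 were bound. In the snoRNA genes outside hosts, 14 of 19 with an A box, 9 of 11 with both boxes and 11 of 16 with the PSE word were bound. Among the 155 members without a thresholded summit, 18 had a box, and 7 of these 18 had a summit in the pooled relaxed list at 20.7 to 30.4, below the lowest thresholded signal of 32.3. Those were F11A10.9 (22.7), F19H8.6 (24.9), F55A11.10 (30.4), K11C4.6 (20.7), T24H7.6 (23.1), Y71F9AM.7 (30.4) and ZK546.18 (21.4), named after their values were seen. Of the 137 unbound members without a box, 22 had a pooled summit, and 1 of those was above 20. That level lies just under the lowest of the 7 values, so the contrast at 20 is partly set by it.

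The remaining 3 own-bound members had none of the words. F39B2.14, in tmem-107, had a thresholded signal of 98.3, with 40.8 in replicate 1 and 56.7 in replicate 2. Its 5′ end lies 61 bp from that of its host, a host transcript starts near the summit, and the summit falls in both windows, so own and host start cannot be told apart there. C51F7.4 lies before C51F7.3 on the same strand and shares its summit, which falls inside C51F7.4, 75 bp downstream of its 5′ end. D1046.6, in cfim-2, had 48.1, with 21.5 in replicate 1 and 31.0 in replicate 2.

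Across the 27 members the summit had a median position of -52 bp, and it was upstream of the 5′ end in 26 of them. No annotated tRNA, snRNA or spliced leader RNA gene starts within 250 bp of any of the 27 summits. Another non-coding RNA gene starts there for 10 of them, so distance alone does not tie those summits to the snoRNA gene. Another snoRNA gene starts there for 2 (the frm-7 pair) and a protein-coding gene, fbxl-1, for 1. The last is a second host: fbxl-1 also holds C02F5.15 on the same strand in a longer span than rfs-1, so own and host start cannot be told apart for C02F5.15 if fbxl-1 is taken as the host. In 22 of the 27 the value in replicate 2 was higher than in replicate 1. The median over each whole nuclear list was also higher in replicate 2 (6.58) than in replicate 1 (5.86), and the scales of these lists were not matched.

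**Figure D2:**
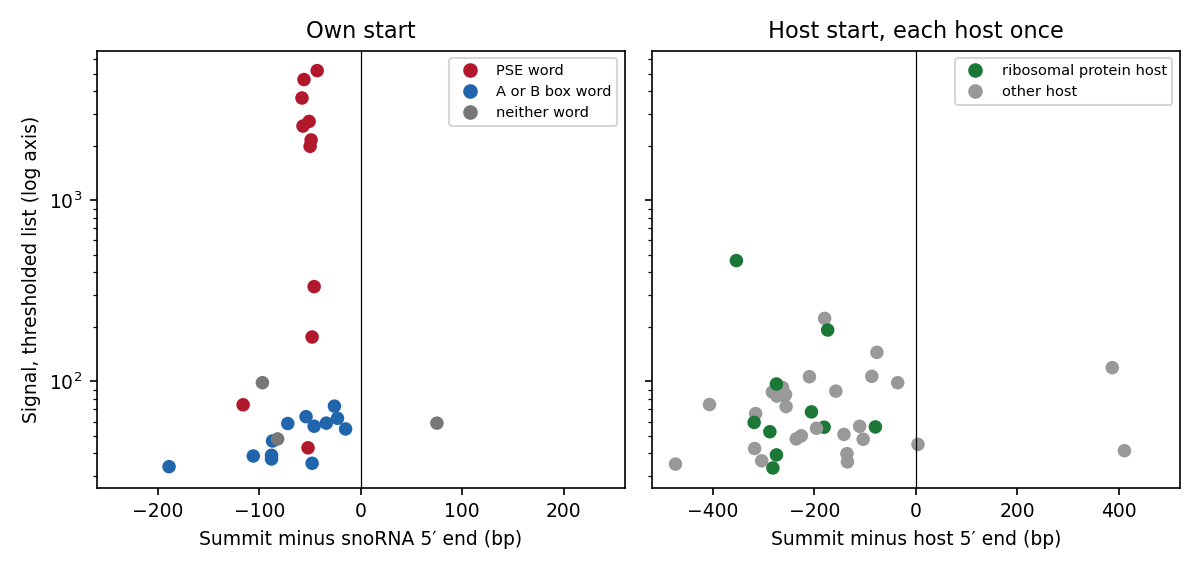
Thresholded signal (log axis) against the position of the summit, for the snoRNA 5′ end (left, 27 members) and for the host 5′ end (right, 38 hosts, each once), with negative positions upstream. Summits within 250 bp of snoRNA starts have a median position of -52 bp and those within 500 bp of host starts -218 bp.

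The comparison of the own promoter with the host promoter used a window of 500 bp around the host 5′ end. A thresholded summit was there for 53 of 182 members (29.1%, interval 22.6 to 36.3%), or 38 of 155 hosts counted once (24.5%, 18 to 32.1%), and for 7.94% of all protein-coding genes. The 2347 highest peaks of replicate 1 gave 56 members, where the share of protein-coding genes was 7.81%, and those of replicate 2 gave 55, where it was 7.63%. Within 100 bp of the thresholded host summit, replicate 1 had a summit for 53 of the 53 members and replicate 2 for 52. The summit nearest to the host start was a different one for 9 members in replicate 1 and 2 in replicate 2. Of the 182 members, 21 had a summit at their own 5′ end only and 47 at the host only. Another 5 had a separate summit in each window, 1 had 1 summit in both and 108 had none in either.

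**Figure D3:**
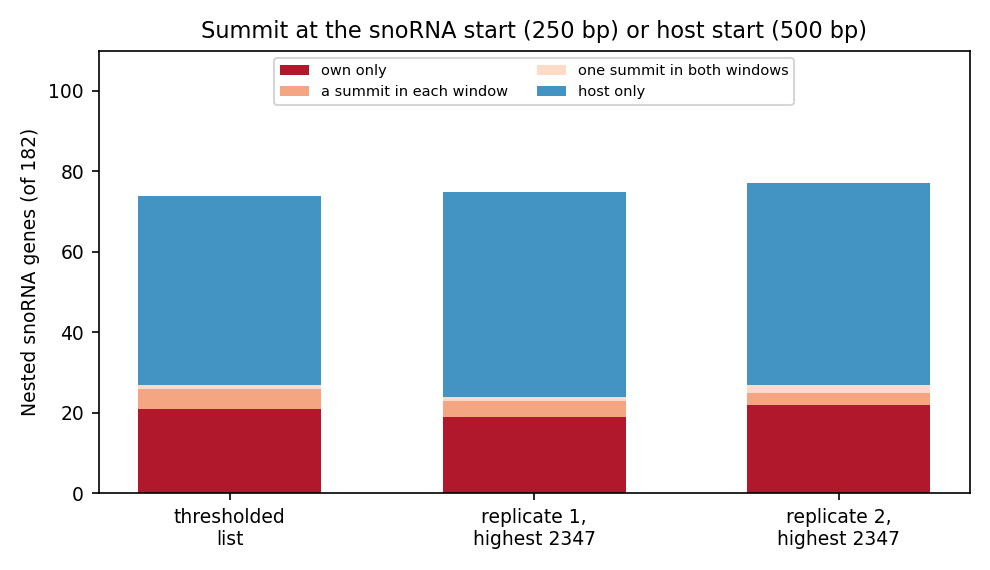
Number of nested snoRNA genes with a summit within 250 bp of their own 5′ end only, with a summit in each window, with 1 summit in both windows, or within 500 bp of the host 5′ end only, in the thresholded list and in the 2347 highest peaks of each replicate. The windows differ in width, and the own-only class holds 21, 19 and 22 genes and the host-only class 47, 51 and 50.

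The larger count at hosts depended on the window. With 250 bp at both starts, 27 members had an own summit and 24 a host summit, where 3.86% of all genes and 5.09% of protein-coding genes had one. With 500 bp at both, 37 had an own summit and 53 a host summit, where the shares were 5.63% and 7.94%, and for 10 members it was the same summit.

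The 5 members with a summit in each window had similar signals at both places. Y43F8C.22 had 62.5 at its own 5′ end and 56.5 at the host, and M106.6 had 46.9 at its own and 44.9 at the start of mix-1, 16071 bp away. C05D2.15 had 56.5 at its own and 66.4 at madf-11, C14C10.8 had 39.1 at its own and 39.9 at ril-2, and R12E2.17 had 38.7 at its own and 48.1 at rpn-8. The own summit was the higher in 2 of the 5. In replicate 1 the pairs were 26.3 own and 33.5 host for Y43F8C.22, 19.9 and 17.7 for M106.6, 33.6 and 25.8 for C05D2.15, 10.7 and 24.3 for C14C10.8, and 20.4 and 16.8 for R12E2.17. In replicate 2 they were 39.1 own and 24.8 host for Y43F8C.22, 21.5 and 22.2 for M106.6, 21.1 and 45.6 for C05D2.15, 28.3 and 18.1 for C14C10.8, and 12.5 and 29.9 for R12E2.17. The order of own and host was the opposite in the 2 replicates for each of the 5, so neither place was the higher beyond the spread between replicates.

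Host summits could lie farther out than own summits, because the host window was wider. Over the 38 hosts the thresholded signal had a median of 62.8 (33.2 to 464.6) and the summit a median position of -218 bp, upstream in 35. Within 250 bp, the width of the own window, 19 hosts had a summit, with a median position of -142 bp and signals from 35.9 to 223. For 14 of the 38 another protein-coding gene also starts within 250 bp of the summit, and for 8 a non-coding RNA gene does. A summit cannot be tied to the host alone there. No tRNA, snRNA or spliced leader RNA gene starts within that distance of any of the 38. Worm messenger RNAs are often trans-spliced, so an annotated host 5′ end can lie downstream of the true transcription start.

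K11H12.12 and K11H12.13, both in rpl-15, a large-subunit ribosomal protein gene, had the highest host summit without an own summit, with a thresholded signal of 465, and 193 in replicate 1 and 269 in replicate 2. C06A1.8 and C06A1.9, in the AAA ATPase gene cdc-48.1, had 223, with 128 in replicate 1 and 105 in replicate 2. F54E7.10 and F54E7.11, in the small-subunit ribosomal protein gene rps-12, had 192, with 93.4 in replicate 1 and 100.2 in replicate 2. The host summit of these 6 members was in the thresholded and both replicate lists, and the 2 members in each host share it. The 4 members in nol-56, which codes for a core protein of box C/D snoRNPs, shared a host summit of 72.6, with 25.1 in replicate 1 and 49.8 in replicate 2, and none had an own summit. The 3 members in rpl-6 had 59.3 at the host, with 26.2 in replicate 1 and 32.9 in replicate 2, and the 3 in the topoisomerase II gene top-2 had 92.5, with 43.5 in replicate 1 and 45.5 in replicate 2 at the same summit. A weaker summit (5.70) lay nearer to the start of top-2 in replicate 1.

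In hosts named as cytosolic ribosomal protein genes (rpl- and rps-) the summits lay upstream of the host start, inside the 500 bp window. Of 19 members in 13 such hosts, 0 had a summit at their own 5′ end and 16 had one at the host, in 11 of the 13 hosts. The own count has an interval of 0 to 17.6%. That interval holds the 14.8% of all nested genes and the 3.86% of all nuclear genes, so the own count does not set this class apart. At the host, 7.94% of all protein-coding genes had a summit. The summits of rpl-7A (-80 bp), rps-12 (-174 bp), rpl-24.1 (-181 bp) and rps-13 (-206 bp) lay within 250 bp, the width of the own window. Those of rps-23 (-259 bp), rpl-7 and rps-4 (both -275 bp), rpl-26 (-282 bp) and rpl-4 (-288 bp) lay farther out. So did those of rpl-6 (-319 bp) and rpl-15 (-354 bp). The own and host counts of this class therefore rest on windows of different width. Ribosomal protein genes without a nested snoRNA gene had a summit in the same window in 48 of 68 cases (70.6%), so a summit was common at this class whether or not it held a snoRNA gene. Leaving that class out, 27 of 142 hosts (19%) had a summit, against 7.68% of all other protein-coding genes. Of the 154 members in hosts outside the classes read from names (ribosomal proteins, translation factors and nol-56), 27 had an own summit and 32 a host summit. These hosts include mrps-2, a mitochondrial ribosomal protein gene, and ubl-1, which codes for a ubiquitin-like ribosomal protein fusion and whose 2 members had a host summit of 106.1.

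Members that end in ACA, as box H/ACA snoRNAs do, had an own summit in 7 of 58 cases and a host summit in 33. Members without that ending had an own summit in 20 of 124 cases and a host summit in 20. The own shares, 12.1% and 16.1%, were both near the 14.8% of all nested genes, where 3.86% of all nuclear genes had one. The host shares were 56.9% and 16.1%, where 7.94% of protein-coding genes had one. These are counts of members, and members of the same host share its summit. The ending and the host class overlap, since 15 of the 19 members in ribosomal protein hosts end in ACA, and the part of each was not tested.

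Among 8 genes of the core proteins that bind snoRNAs, 7 had a thresholded summit within 500 bp of the 5′ end, where 7.94% of protein-coding genes had one. They were fib-1 (112), the methyltransferase fibrillarin, nol-56 (72.6), nol-58 (80.2) and snu-13 (47.1) of box C/D snoRNPs, and dkc-1 (48.8), the pseudouridine synthase, Y48A6B.3 (166) and garr-1 (32.5) of box H/ACA snoRNPs. Of the 7 matched genes for SNAPc subunits 1 did, snpc-3.4 (38.6), and snpc-4 itself did not. The value of garr-1 is just above the lowest thresholded signal of 32.3, and its thresholded summit lay at -420 bp. In replicate 1 the nearest summit, at -407 bp, had 3.68, near the lowest signal of that list (3.62). In replicate 2 the nearest summit had 15.5 but lay at -214 bp, another position than the thresholded one. For dkc-1 the nearest summit had 14.3 in replicate 1 and 4.47 in replicate 2, both at other positions than the thresholded one.

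Members with a host summit alone lay nearer to the host start than the rest, by their medians. The distance from the snoRNA 5′ end to that of the host had a median of 2889 bp for the 27 members with an own summit, 687 bp for the 47 with a summit at the host only and 4042.5 bp for the 108 with neither. Of the 57 members within 1000 bp of the host start, 4 had an own summit and 31 a host summit, and of the 125 farther away, 23 had an own summit and 22 a host summit. The intron around the member was longer for own-bound members (median 467 bp) than for host-only members (222 bp), and the stretch from the upstream exon to the snoRNA 5′ end had a median of 211 bp in own-bound members and 32 bp in host-only ones. In members with neither the intron had a median of 879 bp and that stretch 215 bp. These distances come from the annotation alone, and host class moves with them.

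**Figure D4:**
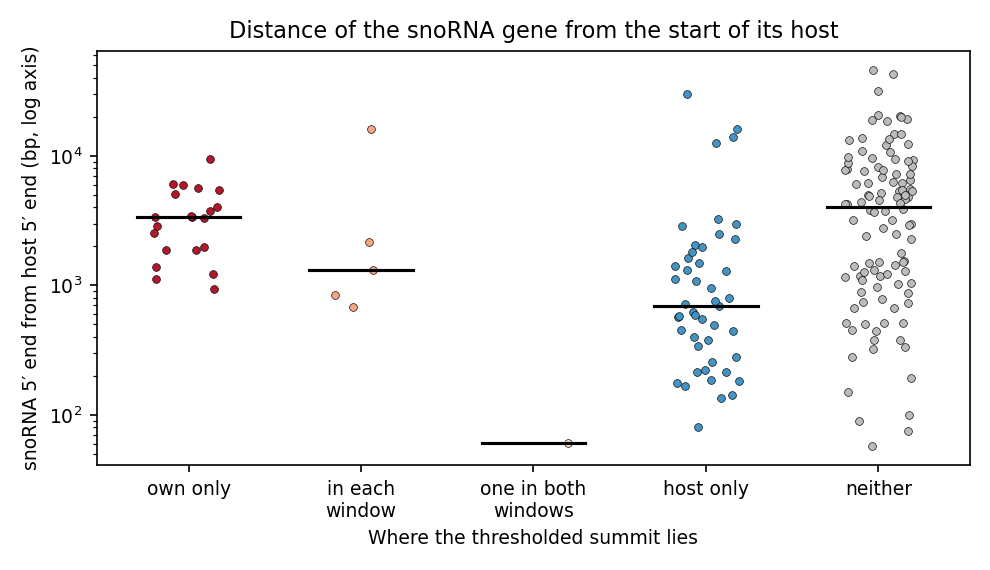
Distance from the snoRNA 5′ end to the host 5′ end (bp, log axis) for each of the 182 nested genes, grouped by where a thresholded summit lies, with a line at the median. Host-only genes have a median of 687 bp and genes with neither summit 4042.5 bp.

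In the relaxed lists most of the additional summits were near the level of the background. In the pooled list 56 of 182 members (30.8%) had a summit within 250 bp of their own 5′ end, against 21.8% of all genes. In replicate 1 it was 50 members (27.5%), where all genes had 20.8%, and in replicate 2 it was 67 members (36.8%), where all genes had 21%. Of the 155 members without a thresholded own summit, 29 (18.7%) had one in the pooled list, 23 (14.8%) in replicate 1 and 40 (25.8%) in replicate 2, and 12 had one in all 3. The 29 pooled signals ran from 6.77 to 30.4, with a median of 11.1. A summit was in no relaxed list for 100 members.

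At the host start the relaxed lists gave a share above that of all protein-coding genes. In the pooled list 100 members (54.9%) had a host summit, where 35.1% of protein-coding genes had one. In replicate 1 it was 103 (56.6%), where 35.2% did, and in replicate 2 it was 112 (61.5%), where 35.7% did.

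The farthest summits inside the 250 bp window were 189 bp (C02F5.15) and 116 bp (C02C6.13) away, and just outside was F54E7.10 at 254 bp, whose nearest summit is that of its host rps-12. For the host window E01A2.9 and E01A2.11 in akir-1 were inside at 474 bp, and B0412.6 and B0412.7 were outside at 530 bp.

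The share of nested genes with an own summit was set beside that of the other snoRNA genes. In the thresholded list it was 27 of 182 (14.8%) for nested genes on the strand of the host, 13 of 33 (39.4%) for genes on the opposite strand and 43 of 129 (33.3%) for genes outside. Among the bound genes the median signal was 62.5 in nested genes, 73.8 on the opposite strand and 67.5 outside, and the highest was 5205, 2494 and 6107. The PSE word was in 11 of 182 nested genes, 5 of 33 on the opposite strand and 16 of 129 outside, and of those with the word 11, 4 and 11 were bound. The PSE-word genes had a median signal of 2155 nested and 1515 outside. Bound genes without the word reached 98.3 nested, 963 on the opposite strand and 2529 outside. High signals in the other snoRNA genes therefore also occurred without the word. The highest signals thus occurred at nested positions as well as outside any host. Whether the shares differ was not tested. In the pooled relaxed list the shares were 30.8% nested, 54.5% on the opposite strand and 52.7% outside.

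**Figure D5:**
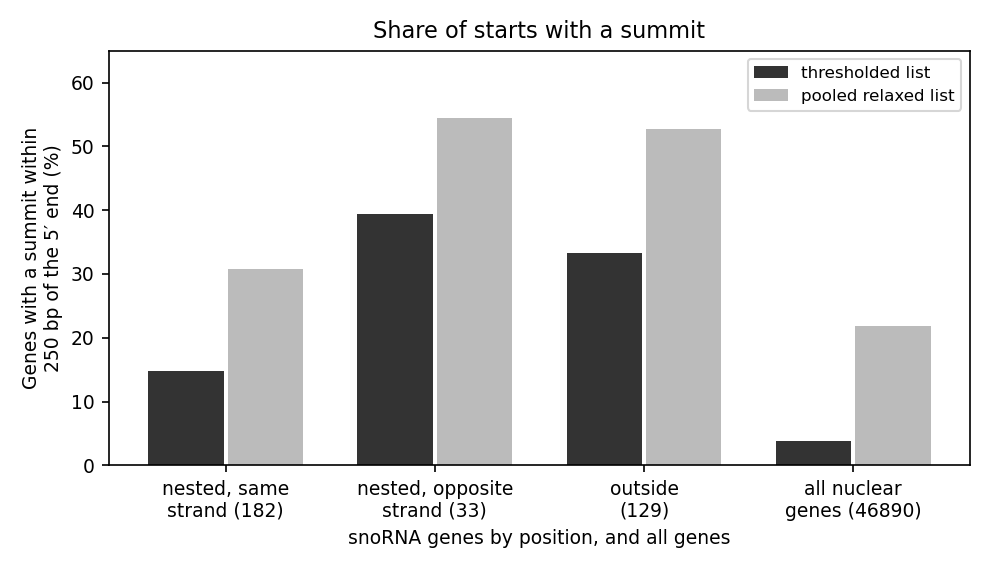
Percent of genes with a summit within 250 bp of the annotated 5′ end in the thresholded and the pooled relaxed list, for nested snoRNA genes on the host strand (182), on the opposite strand (33), outside protein-coding spans (129) and for all nuclear genes (46890). In the thresholded list the shares are 14.8%, 39.4%, 33.3% and 3.86%.

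Reads that map to several places could affect a summit at repeated sequence. The share of words of 36 bases that occur once in the genome, within 250 bp of the 5′ end, had a median of 1 both in the 27 own-bound and in the 155 other members. It was under 0.5 in 0 of the 27 and in 2 of the 155, and its lowest value among the 27 was 0.652.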

How the data were processed

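ChIP-seq peak lists of 2 biological replicates were used as deposited, on build ce11. The authors made relaxed lists from alignments and a control alignment, and the thresholded list from the pooled and replicate lists, per the deposited notes. The names of the aligner and the peak caller were not given in the sources used here. The deposited signal of a peak is never negative, its scale is not given, and peaks were ranked within a list. Values of the replicates stand side by side without matched scales. The deposited −log10 q was not used to rank peaks. Depth is unknown. A summit is the peak start plus the deposited distance. Genes came from Ensembl 115 (WBcel235), symbols and sequence from RefSeq. The host is the smallest same-strand protein-coding span, and 3 members have a second one. The nearest summit was counted within 250 bp of the snoRNA and 500 bp of the host 5′ end. In a relaxed list the nearest summit can be a weaker one than the thresholded summit.

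The members, lists and words were chosen with earlier results of these data known. Named genes follow a rule: every own-bound member (the 15 highest in full) with its host, the 5 highest host-only members (a tie adds 1), members with both, the hosts with most members (20 tie after the first 3) and the snoRNP and SNAPc genes. Edge members and 7 unbound members with a box were named after their values were seen. The matching functions were tested on simulated data. Alternatives were other windows, lists, intervals in place of summits, introns only, any host, and each replicate left out. Scripts ran in Python 3.11.15 with pandas 2.3.3, numpy 2.4.6, matplotlib 3.10.9 and scipy 1.17.1.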

Additional observations from a re-analysis of the deposited data

How the results depend on the processing

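No paired analysis was possible because the 2 replicates form 1 group with nothing to pair. With a host window of 250 bp, 24 members had a host summit, fewer than the 27 with an own summit, so the order of the counts turned. Of these 24, 19 had none at their own 5′ end, and they lay in 19 hosts. Keeping only the 1173 thresholded peaks of highest signal left 24 hosts. In the pooled relaxed list 56 members had an own summit, 100 a host summit and 71 a host summit alone, in 81 hosts. Leaving out either replicate and using the 2347 highest peaks of the other, own summits numbered 24 to 27, host summits 55 to 56, own-only members 19 to 22, host-only members 50 to 51 and hosts 37 to 41, and the median position was -65 to -53 bp. In all, 37 alternative values stayed within 1.5 times the count in the thresholded list, or near its median position. They include those with a replicate left out and those counting any of several hosts. Counting any of several hosts, an alternative chosen after seeing the data, gave 54 members with a host summit and 20 with an own summit alone, C02F5.15 being the difference. Unknown depth, 2 replicates and annotated 5′ ends limit every count.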
